A study of Mus musculus with 4 samples.

Results

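The 33 genes described here encode the proteins that adipocytes and other cells use to take up, store, mobilise and export lipid, together with the hormones that mark a mature adipocyte. They were taken by symbol from a table of 44788 genes measured by RNA sequencing in mouse bone marrow stromal cells, the adherent cells of the marrow from which osteoblasts and marrow adipocytes arise. All cells carried loxP-flanked alleles of Setd2 (Setd2 fl/fl, strain C57BL/6J), had been passaged 2 times, and were kept in puromycin at 2 µg/ml for 4 days after infection. The GFP group (2 libraries) received a lentivirus expressing GFP and served as the control. The Cre group (2 libraries) received a lentivirus expressing Cre recombinase, which excises the floxed part of Setd2, the gene of the methyltransferase that trimethylates lysine 36 of histone H3. GFP was the only control virus, so loss of Setd2 and Cre itself cannot be told apart. Whether the 2 libraries of each group stem from different cultures or animals is not given in the labels. The p-values therefore set a group difference only against the spread of these particular libraries, a spread that may be technical. No adipogenic medium is named in the labels.

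Fatty acids reach a cell from lipoproteins cut by lipoprotein lipase or from albumin, cross the membrane with the help of CD36 and the fatty acid transport proteins, and are carried in the cytosol by fatty acid binding proteins. Acyl-CoA synthetases activate them, a chain of acyltransferases and lipin builds triglyceride, and the triglyceride is stored in droplets coated by perilipins. A sequence of lipases with their activator and inhibitor releases the fatty acids again. In marrow stroma this machinery is best known from the marrow adipocyte, which also secretes adiponectin, and parts of it are used by macrophages too.

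Totals lay between 12371994 and 14315903 counts per library, and the floor used here, 3 counts, was worth 0.207 to 0.255 CPM (counts scaled to a common library size with TMM factors). Setd2, on chromosome 9 from 110532500 to 110618633, was counted 1400 and 1250 times with GFP but 551 and 468 times with Cre, a log2 fold change of -1.60 ± 0.08 (standard error) at an adjusted p = 3.65e-15. Such a total also counts exons outside the floxed part. GFP replicate 2 stood apart: Rn18s-rs5, an 18S ribosomal RNA gene, held 7.45% of its counts, against 1.21% to 2.07% in the other 3 libraries, and without it edgeR called 0 genes at an adjusted p under 0.05 (2197 genes had an unadjusted p under 0.05). Without GFP replicate 1 it called 12, with Setd2 among them (adjusted p = 0.0417) but no gene said below to have risen or fallen. All those calls were thus made only with both GFP libraries. With 1 GFP library the spread comes from the Cre libraries alone, so a lost call need not mean a smaller difference. Setd2 itself stood at -1.59 without GFP replicate 2. The fold changes without GFP replicate 2 are given beside most of the calls.

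The cells carried the markers of stroma and had almost none of those of mature fat. All 10 stromal markers were tested, 3 rose (Col1a1, Col1a2 and Thy1) and 1 fell (Cxcl12), beside 3.74% and 3.22% of all tested genes. Their median log2 fold change was -0.07, with 6 of the 10 below 0. Thy1 was not called by DESeq2 (adjusted p = 0.163), nor Cxcl12 with scaling by library size alone (adjusted p = 0.0976). The summed level of the 10 was 15344 and 15224 CPM with GFP and 19200 and 20247 CPM with Cre, most of it from the collagen genes Col1a1 (6896 CPM with GFP, 9901 with Cre) and Col1a2 (7116 and 8681 CPM). Of 10 markers of mature adipocytes, 8 had at most 3 counts in each of the 4 libraries, and the other 2 were Fabp4 and the hormone-sensitive lipase gene Lipe. The term adipocyte therefore names here what the genes do elsewhere, not a cell type seen in these cultures. Macrophage markers were well above the floor, with 15 of 15 tested and a summed level from 2213 to 2607 CPM, led by the lysozyme gene Lyz2 (1398 ± 14.6 CPM with GFP). Of 8 endothelial markers, 5 were tested, and all 8 together came to 12.3 CPM in both GFP libraries and to 10.2 and 10.6 CPM in the Cre libraries, with the tight junction gene Cldn5 at 0.

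Of the 33 lipid genes, 24 passed the filter on low counts and were tested, and 9 did not. By edgeR's quasi-likelihood test with Benjamini-Hochberg adjustment over all 14483 tested genes, 6 of the 24 rose and 0 fell. An unadjusted p under 0.05, in either direction, was reached by 9 of the 24 and by 3031 of all 14483. Over all tested genes 6.97% were called, 3.74% higher and 3.22% lower. The 6 were Apoe, Fabp5, Slc27a1, Plin2, Lpl and Mgll, with rises between 0.24 and 0.70 on the log2 scale. On GRCm38.p6, Fabp5 lies on chromosome 3 (10012585 to 10016610), Plin2 on 4 (86626910 to 86670217), Mgll on 6 (88724412 to 88828360), Apoe on 7 (19696244 to 19701310), and Lpl (68880555 to 68906932) and Slc27a1 (71568728 to 71587307) on 8. The median log2 fold change was 0.05 over the 24 genes and -0.0045 over all tested genes. Both Cre libraries lay above both GFP libraries for 12 of the 24 and below for 2, where 24.5% and 25.5% of all tested genes did so. DESeq2 called 3 of these rises (Fabp5, Plin2 and Apoe) and 0 falls, with 2.54% higher and 1.32% lower over the genes it adjusted. Summed over all 33 genes, the level was 1755 and 1769 CPM in the GFP libraries and 1999 and 2020 CPM in the Cre libraries.

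**Figure D1:**
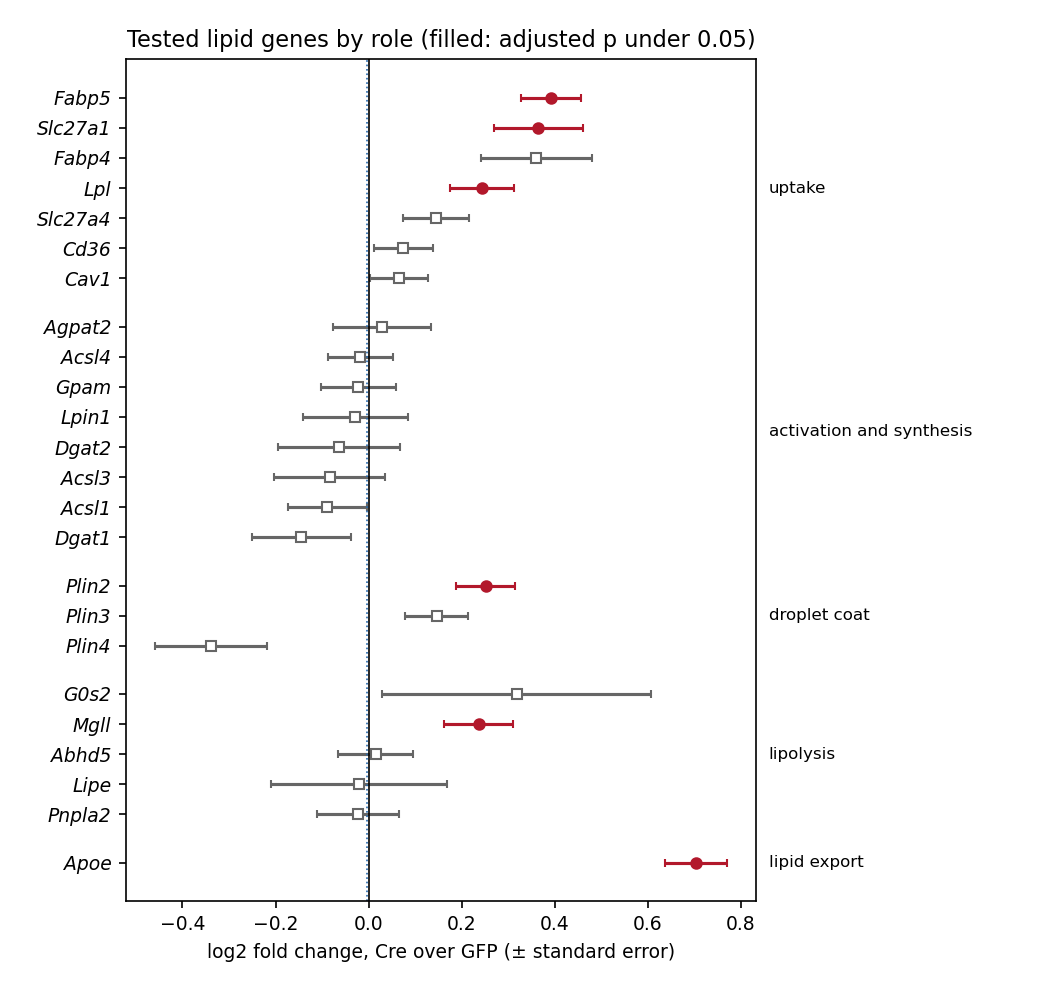
Log2 fold change, Cre over GFP, of the 24 tested lipid genes, ordered by role, with bars of 1 standard error. Filled red circles passed an adjusted p of 0.05, open squares did not, and the dotted line is the median of all tested genes. The 7 uptake genes lie to the right of 0, while 7 of the 8 activation and synthesis genes lie to its left, each within 2 standard errors of 0.

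Per length of transcript the droplet protein gene Plin2 was the most abundant of the 33, at 173 CPM per kb with GFP and 206 with Cre, followed over all libraries by Fabp5, Apoe, Cd36 and Cav1. With GFP the order of the next genes was Fabp5 (121 CPM per kb), Cd36 (99.2), Apoe (85.3) and Cav1 (60.7), and with Cre Apoe (139 CPM per kb) stood above Cd36 (104). The genes of lipolysis and of triglyceride synthesis were lower, from 15.8 CPM per kb for Abhd5 to 1.47 for Lipe over the 4 libraries. The middle of the order, from Slc27a4 (17.2 CPM per kb) to Dgat1 (11.3), held 8 genes, each overlapping the next over the libraries.

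**Figure D2:**
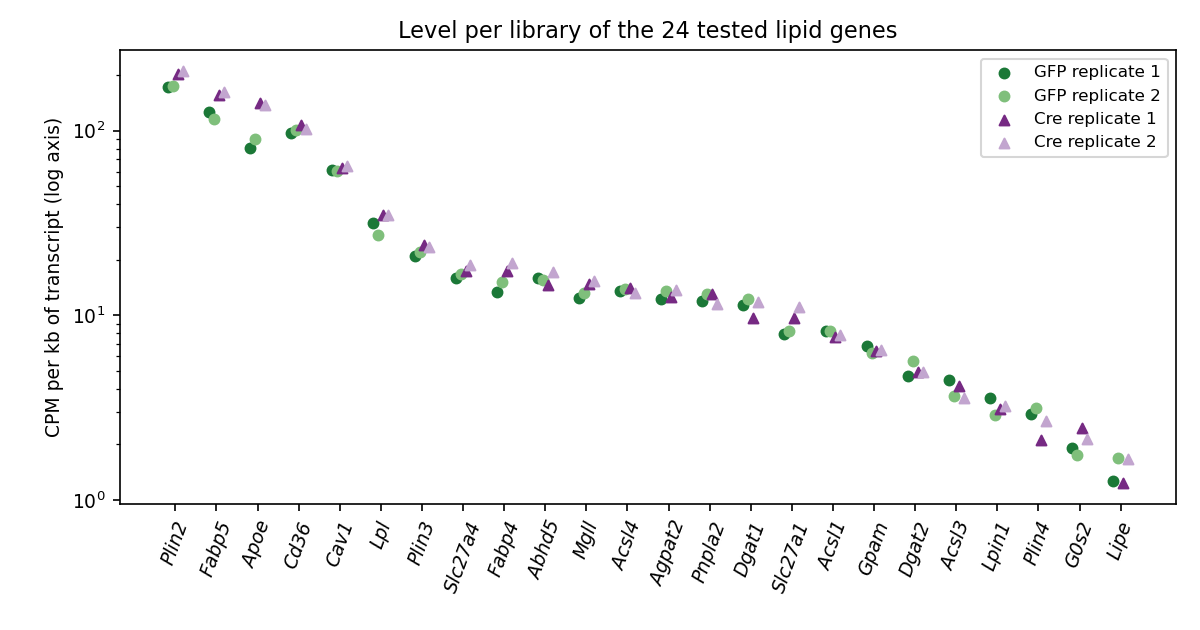
Level of each tested lipid gene in each library, in CPM per kb of the longest coding transcript, on a log axis. Circles are GFP and triangles Cre libraries. Plin2 stands at the left with 173 CPM per kb with GFP, and Lipe at the right with 1.48.

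Sequence upstream of the start site was available from RefSeq (GRCm38.p6) for 26 of the 33 genes, in 36 windows. Cidea, Dgat1, Dgat2, Fabp4, Fabp5, Lpl and Slc2a4 had no entry. The stretch from 250 to 11 bases before the start is printed, 5′ to 3′ on the strand of the gene, for the 4 genes that rose and had an entry, and for the adiponectin gene, at no more than 2 counts per library, beside them. Where a gene has several windows, the one listed first is printed. Capitals mark the motifs searched on both strands. Apoe lies at chr7:19699199-19699438 (minus strand), Plin2 at chr4:86670070-86670309 (minus), Slc27a1 at chr8:71568621-71568860 (plus), Mgll at chr6:88724162-88724401 (plus) and Adipoq at chr16:23146286-23146525 (plus).
Apoe: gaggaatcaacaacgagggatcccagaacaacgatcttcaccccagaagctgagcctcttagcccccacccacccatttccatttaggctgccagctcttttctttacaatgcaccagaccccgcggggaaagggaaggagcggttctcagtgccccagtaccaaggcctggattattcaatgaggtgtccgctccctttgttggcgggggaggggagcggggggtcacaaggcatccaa
Plin2: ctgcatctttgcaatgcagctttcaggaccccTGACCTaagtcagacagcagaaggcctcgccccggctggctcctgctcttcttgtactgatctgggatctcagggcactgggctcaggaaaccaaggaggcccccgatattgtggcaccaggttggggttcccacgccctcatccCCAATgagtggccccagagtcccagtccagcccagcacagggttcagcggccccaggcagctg
Slc27a1: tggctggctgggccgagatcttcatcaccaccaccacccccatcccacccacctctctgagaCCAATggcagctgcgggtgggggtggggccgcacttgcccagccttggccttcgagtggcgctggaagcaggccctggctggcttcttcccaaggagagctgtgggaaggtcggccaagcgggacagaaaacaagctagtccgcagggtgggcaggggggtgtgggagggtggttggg
Mgll: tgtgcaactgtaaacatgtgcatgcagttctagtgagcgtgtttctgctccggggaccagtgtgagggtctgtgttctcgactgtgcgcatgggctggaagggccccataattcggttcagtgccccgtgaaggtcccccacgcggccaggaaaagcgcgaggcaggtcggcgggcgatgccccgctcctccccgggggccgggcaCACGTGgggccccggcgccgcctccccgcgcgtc
Adipoq: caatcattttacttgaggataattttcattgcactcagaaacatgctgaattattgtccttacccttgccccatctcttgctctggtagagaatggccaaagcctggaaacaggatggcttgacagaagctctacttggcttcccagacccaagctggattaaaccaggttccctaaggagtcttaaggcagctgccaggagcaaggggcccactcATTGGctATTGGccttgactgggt

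The Plin2 window held 1 nuclear receptor half-site (AGGTCA, here on the opposite strand at -218 to -213 from the start, where it reads TGACCT) and 1 CCAAT box at -73 to -69. The Slc27a1 window held a CCAAT box, the Mgll window an E-box (CACGTG) and the Adipoq window 2 CCAAT boxes on the opposite strand. None of the searched letters occurred in the printed Apoe window, which says nothing about the factors that act there. Windows of these genes that are not printed held TATA box letters for Apoe and a GC box for Mgll. Those of Slc27a1 held GC boxes, an E-box and a CCAAT box. Over all 32851 windows of this length, AGGTCA occurred in 13.5%, CCAAT in 10854 windows, CACGTG in 5.69%, the GC box GGGCGG in 31.3% and the TATA box TATAAA in 12.1%. In the 36 windows of the lipid genes they occurred in 5, 10, 3, 18 and 2. The direct repeat bound by PPAR receptors, AGGTCA repeated on 1 strand with 1 base between, occurred in 0 of the 36 windows and in 0.0335% of all. The repeat bound by LXR receptors, with 4 bases between, was likewise in 0 of the 36 and in 0.0152% of all. The C/EBP palindrome TTGCGCAA was in 1 of the 36 windows, that of leptin, and the sterol element core TCACNCCAC in 1, of Acsl1. The whole printed Mgll window lies in an exon of the antisense gene Gm26588, while the other 4 overlap no exon of GENCODE M21. By RefSeq positions the Apoe window lies inside the span of its gene. Those of Plin2 and Slc27a1 lie partly inside the spans of theirs.

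Genes of lipid uptake were higher in both Cre libraries than in both GFP libraries for 7 of 7, and 3 passed the test, beside 24.5% and 3.74% of all tested genes. This group was formed after the counts were seen, and of the 19 other uptake and carrier genes tested, described further on, 26.3% lay above in Cre. Fabp5, the fatty acid binding protein first described in epidermis, had 1643 and 1340 counts with GFP and 2221 and 2321 with Cre. It rose from 120 ± 7.73 to 157 ± 4.74 CPM (mean ± SD, n = 2 each, as below). This is a log2 fold change of 0.39 ± 0.06 (standard error, as below) at an edgeR adjusted p = 0.000174. The groups did not overlap, and the log2 value without GFP replicate 2 was 0.33. Fabp5 has copies in the genome: 21.1% of the stretches of 50 bases in its transcript also occur in transcripts of other genes, mostly Gm6166, which had 14 to 35 counts per library, so its count is uncertain to that extent. Slc27a1, the insulin-responsive fatty acid transport protein, had 290 and 269 counts with GFP and 390 and 447 with Cre. It rose from 22.5 ± 0.591 to 28.9 ± 2.76 CPM, or by 0.36 ± 0.10 on the log2 scale (edgeR adjusted p = 0.0162), both Cre libraries lying above both GFP libraries. Leaving out GFP replicate 2 gave 0.39, and DESeq2 did not call it (adjusted p = 0.212).

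Lpl, the lipase that frees fatty acids from circulating triglyceride, had 1716 and 1314 counts with GFP and 2084 and 2072 with Cre. The GFP libraries differed from each other, at 131 and 112 CPM, while the Cre libraries were close, at 144 and 143 CPM. Lpl rose by 0.24 ± 0.07 on the log2 scale (edgeR adjusted p = 0.0261), but its value was 0.14 when GFP replicate 2 was left out and 0.36 when GFP replicate 1 was. It was not called by DESeq2 (adjusted p = 0.0945) or with scaling by library size alone (adjusted p = 0.0958).

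The other 4 uptake genes did not pass. Fabp4, the binding protein of adipocytes that macrophages and endothelium also make, had 158 and 160 counts with GFP and 225 and 250 with Cre. Its log2 fold change was 0.36 ± 0.12 (edgeR adjusted p = 0.0624), the same to 2 decimals as that of Slc27a1, and the groups did not overlap. Per length Fabp5 was 7.6 to 9.44 times as abundant as Fabp4 in the 4 libraries. Cd36, the fatty acid translocase, had 4343 and 4034 counts with GFP and 5271 and 4992 with Cre. After scaling, the 2 groups nearly touched, with 344 CPM in the higher GFP library and 345 CPM in the lower Cre library (log2 fold change 0.07, interval of 2 standard errors from -0.05 to 0.20). Slc27a4, another transport protein, stood at 0.14 (edgeR adjusted p = 0.245, interval 0.0019 to 0.29) and Cav1, the caveolin that shapes membrane pits, at 0.06 (-0.06 to 0.19).

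Of the 8 genes of fatty acid activation and triglyceride synthesis, 0 passed the edgeR test and DESeq2 called 0. An unadjusted edgeR p under 0.05 was reached by 0 of the 8, beside 3031 of all 14483 tested genes. As edgeR called 6.97% of all tested genes, 0 calls among 8 genes is near that share. The log2 fold changes of the 8 ran from -0.14 to 0.03, with a median of -0.05. The groups overlapped for 7 of the 8, and for 7235 of all 14483 tested genes. Gpam, the mitochondrial acyltransferase that starts glycerolipid synthesis, had 553 and 453 counts with GFP and 570 and 580 with Cre, a log2 fold change of -0.02 with an interval from -0.18 to 0.14. Agpat2, which adds the next acyl chain and is a gene of inherited lipodystrophy, had 240 and 236 counts with GFP and 269 and 296 with Cre (0.03, interval -0.18 to 0.24). Lpin1, the phosphatidate phosphatase lipin, had 261 and 190 counts with GFP and 251 and 262 with Cre (-0.03, interval -0.25 to 0.20). The groups overlapped for all 3 genes, and the interval of Agpat2 reaches 0.24, the size of the rises of Lpl and Mgll.

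The final step, from diacylglycerol to triglyceride, is made by enzymes of unrelated sequence. Dgat1 had 282 and 273 counts with GFP and 263 and 321 with Cre, a log2 fold change of -0.14 (interval -0.36 to 0.07). Its Cre libraries differed, and the value was -0.0026 without Cre replicate 1 and -0.29 without Cre replicate 2. Dgat2 had 139 and 151 counts with GFP and 162 and 161 with Cre, a log2 fold change of -0.06 (interval -0.32 to 0.20). Per length Dgat1 was 1.95 to 2.43 times as abundant as Dgat2 in each library. Of the acyl-CoA synthetases, Acsl1, the main form of adipocytes, stood at -0.09 with both Cre libraries (mean 30.05 ± 0.510 CPM) below both GFP libraries (31.9 ± 0.136 CPM). Acsl4, which prefers arachidonic acid, stood at -0.02 and Acsl3, found on nascent droplets, at -0.08, and their groups overlapped. With scaling by library size alone the signs of Acsl4, Gpam and Lpin1 turned, each to a value within 0.02 of 0. Antisense exons lie over 9.91% of the exon bases of Acsl1, and Utp14b shares 5.60% of those of Acsl3, so these counts are uncertain. The difference between uptake and synthesis genes was not tested.

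Of the 6 droplet proteins, 3 passed the low-count filter, and 1 of these rose, beside 3.74% of all tested genes. Plin2, the perilipin that most cell types place on their droplets, had 4271 and 3865 counts with GFP and 5517 and 5742 with Cre. It rose from 327 ± 2.88 to 389 ± 10.6 CPM, by 0.25 ± 0.06 on the log2 scale (edgeR adjusted p = 0.0112). The groups lay apart, with 329 CPM in the higher GFP and 382 CPM in the lower Cre library, and the log2 value without GFP replicate 2 was 0.26. Plin3, which moves from the cytosol to new droplets, had 1009 and 939 counts with GFP and 1267 and 1241 with Cre (log2 fold change 0.15, interval 0.01 to 0.28, edgeR adjusted p = 0.205). Plin4, a perilipin enriched in white fat and muscle, had 220 and 213 counts with GFP and 176 and 222 with Cre. Both its Cre libraries (12.2 and 15.3 CPM) lay below both GFP libraries (16.7 and 18.1 CPM), a log2 fold change of -0.34 ± 0.12 (edgeR adjusted p = 0.0862). Cre replicate 1 was the lowest: without it Plin4 stood at -0.18, and without Cre replicate 2 at -0.52 (edgeR adjusted p = 0.0299). Plin1, the perilipin of the mature adipocyte, had 1 count in GFP replicate 1 and 0 elsewhere, and the droplet fusion genes Cidea and Cidec had 0 in all 4 libraries.

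Among the genes of lipolysis 1 of 5 rose, that of the last enzyme in the series, beside 3.74% of all tested genes. Mgll, which splits monoglyceride and also degrades the endocannabinoid 2-arachidonoylglycerol, had 647 and 621 counts with GFP and 856 and 882 with Cre. It rose from 51.1 ± 2.57 to 60.1 ± 1.21 CPM, by 0.24 ± 0.07 on the log2 scale (edgeR adjusted p = 0.0493), and the groups did not overlap. The call sits at the threshold: DESeq2 gave an adjusted p of 0.283, scaling by library size alone 0.0819, and the fit with the replicate number as a block 0.0692. It stood at 0.29 without GFP replicate 2. Exons of Gm26588 lie over 3.29% of its exon bases.

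The upstream lipases and their partners gave small values. Pnpla2, adipose triglyceride lipase, had 411 and 402 counts with GFP and 494 and 437 with Cre (log2 fold change -0.02, interval -0.20 to 0.16). Its coactivator gene Abhd5 had 659 and 579 counts with GFP and 668 and 786 with Cre (0.02, interval -0.15 to 0.18). The groups overlapped for both genes. G0s2, the inhibitor of the same lipase, had 22 and 18 counts with GFP and 31 and 27 with Cre, few enough that its interval ran from -0.26 to 0.90, although both Cre libraries lay above both GFP libraries. Lipe, hormone-sensitive lipase, had 62 and 74 counts with GFP and 66 and 90 with Cre (-0.02, interval -0.40 to 0.36). Antisense exons lie over 16.0% of the exon bases of Abhd5 and 15.6% of those of Lipe, whose counts are uncertain, and the signs of Pnpla2 and Lipe turned with scaling by library size alone. Per length Plin2 was 13.4 to 18.3 times as abundant as Pnpla2.

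The adipokine and mature adipocyte genes were at or under the floor in every library. Adipoq, the gene of adiponectin, was counted 0 times in both GFP libraries, and 2 times and 1 time in Cre replicates 1 and 2. Leptin (Lep) and resistin (Retn) had 0 in all 4. Cfd, the serine protease adipsin, had 1 count, in GFP replicate 2, and Pck1, which makes phosphoenolpyruvate for glycerol synthesis, 1 count, in Cre replicate 2. Slc2a4, the insulin-regulated glucose transporter, had 0 and 3 counts with GFP and 2 and 1 with Cre. In all, the 9 genes below the filter, Plin1, Cidea and Cidec among them, summed to 1 and 4 counts with GFP and to 4 and 3 with Cre. A count of 0 allows a level of up to 0.255 CPM in the shallowest library and 0.207 CPM in the deepest, by counting error only, and no difference between the viruses was detectable at this depth.

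Apoe, the lipoprotein component with which cells export cholesterol, showed the largest difference of the 24 tested genes. It had 1486 and 1492 counts with GFP and 2857 and 2796 with Cre. It rose from 120 ± 9.87 to 195 ± 3.17 CPM, which is 1.63-fold or 0.70 ± 0.07 on the log2 scale (edgeR adjusted p = 1.48e-08). Its p-value ranked 15 of 14483 genes. The groups lay far apart, with 127 CPM in the higher GFP library and 193 CPM in the lower Cre library. The log2 value was 0.79 with GFP replicate 2 left out and 0.62 with GFP replicate 1 left out. No exon of another gene overlaps those of Apoe.

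**Figure D3:**
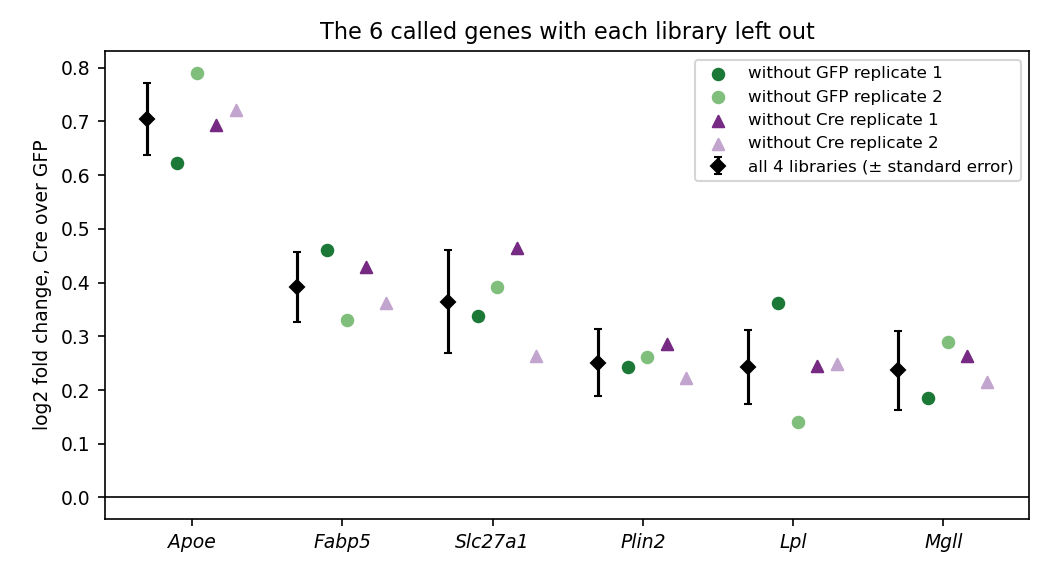
Log2 fold change, Cre over GFP, of the 6 genes that rose, in all 4 libraries (black diamonds, bars of 1 standard error) and with each library left out. All values lie above 0, as both Cre libraries lay above both GFP libraries for each of the 6 genes. Lpl moves the most in proportion, from 0.14 without GFP replicate 2 to 0.36 without GFP replicate 1.

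Macrophages also express Apoe, Lpl, Plin2, Cd36, Fabp4 and Fabp5, and their markers moved in these libraries, as did stromal markers. Of 15 macrophage markers, 5 rose (33.3%) and 1 fell (6.67%), beside 3.74% and 3.22% of all tested genes. Their median log2 fold change was 0.19. The summed level went from 2213 and 2283 CPM with GFP to 2606 and 2607 CPM with Cre, a 1.16-fold difference. The summed level of the stromal markers differed 1.29-fold, most of it from Col1a1 and Col1a2, and 40% of each list was called. The mannose receptor gene Mrc1 rose by 0.42, the complement gene C1qb by 0.31, the endosomal glycoprotein gene Cd68 by 0.30, Lyz2 by 0.27 and the adaptor gene Tyrobp by 0.25. Emr1, which encodes the macrophage antigen F4/80, fell by 0.30. DESeq2 called 3 of the 15 higher and 1 lower, beside 2.54% and 1.32% of the genes it adjusted. The values of the receptor gene Csf1r (0.16) and the leukocyte antigen gene Ptprc (-0.08) did not pass. The part of these cells in the lipid genes was not tested, and in bulk RNA more cells of a type and more RNA per cell cannot be told apart. The 15 macrophage markers ranged from -0.30 to 0.42. All tested lipid genes except Apoe (0.70) and Plin4 (-0.34) lay in that range, called or not. Lying in it therefore does not set the genes that rose apart. The 5 endothelial markers tested had a median of -0.30 and 0 passed in edgeR. Of these Pecam1 (-0.81) alone had an unadjusted edgeR p under 0.05, as had 3031 of all 14483 tested genes.

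Other genes of lipid metabolism were listed by function, and 6.97% of all tested genes were called, 3.74% higher. Of 26 other genes of uptake and carriage, 19 were tested, 3 rose (15.8%) and 0 fell, with a median of -0.02. The caveolar coat gene Prkcdbp (cavin-3) rose from 76.8 ± 0.785 to 109 ± 3.32 CPM, by 0.51 on the log2 scale (edgeR adjusted p = 4.80e-06), while Ptrf (cavin-1) stood at 0.02 and Cav2 at -0.02. Lmf1, a factor needed for lipoprotein lipase to mature, rose by 0.32 (adjusted p = 0.0391), beside the rise of Lpl itself. Fabp7, the binding protein of brain, rose by 0.65 from a low level of 3.22 CPM (adjusted p = 0.0440). Without GFP replicate 2 the 3 stood at 0.50, 0.28 and 0.66. DESeq2 called Prkcdbp alone of the 3 and gave Fabp7 no adjusted p. With scaling by library size alone edgeR did not call Lmf1 (adjusted p = 0.0877) or Fabp7 (adjusted p = 0.0719). Gpihbp1, which anchors lipoprotein lipase on capillaries, had 0 counts in all libraries.

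Of 27 other genes of triglyceride synthesis and droplets, 21 were tested, 1 rose (4.76%) and 0 fell, with a median of 0.01. The call was Pck2, the mitochondrial partner of Pck1, which went from 62.0 ± 0.942 to 79.7 ± 9.51 CPM, by 0.36 on the log2 scale (edgeR adjusted p = 0.00290). Of 33 other genes of lipolysis and fatty acid oxidation, 29 were tested, 1 rose (3.45%) and 0 fell, with a median of 0.06. Acadvl, the dehydrogenase of very long acyl chains, rose by 0.23 (adjusted p = 0.0446), and the entry enzyme Cpt1a stood at -0.01. DESeq2 called Pck2 and not Acadvl, which edgeR did not call either with scaling by library size alone (adjusted p = 0.0694). Of 26 other adipokine, insulin response and mature adipocyte genes, 18 were tested. Of these 1 rose and 1 fell (11.1% in all), with a median of -0.07. Tmem120a, a gene of the nuclear envelope in fat, rose by 0.30 (adjusted p = 0.0159) and Npr3, the natriuretic peptide clearance receptor that adipocytes carry, fell by 0.38 (adjusted p = 0.000703). Without GFP replicate 2 Pck2 stood at 0.38, Acadvl at 0.30, Tmem120a at 0.40 and Npr3 at -0.39, and DESeq2 called Npr3 but not Tmem120a.

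Of 18 other apolipoprotein and sterol efflux genes, 13 were tested, 2 rose (15.4%) and 0 fell, with a median of 0.14. The cholesterol exporter gene Abcg1 rose from 20.2 ± 0.212 to 27.2 ± 2.71 CPM, by 0.42 on the log2 scale (edgeR adjusted p = 0.00660). Npc2, which hands cholesterol out of the lysosome, rose from 526 ± 6.83 to 628 ± 22.3 CPM (0.25, adjusted p = 0.00997). Without GFP replicate 2 they stood at 0.42 and 0.24, and DESeq2 called Npc2 but not Abcg1 (adjusted p = 0.134). The gene of LXR alpha, Nr1h3, a nuclear receptor known to act on Apoe and Abcg1, stood at 0.31. Nr1h3 was not called by edgeR (adjusted p = 0.0896) or DESeq2 (adjusted p = 0.524), and a part of it in these rises was not tested. Abca1, another exporter, stood at 0.04. Apoc1, the apolipoprotein gene next to Apoe in the genome, had 1 count, in GFP replicate 2.

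The factors that drive adipocyte genes gave no calls: of 14, 13 were tested, and 0 rose and 0 fell in edgeR. Over all tested genes 3.74% rose and 3.22% fell. The median of the 13 was -0.13, and DESeq2 called 0. In edgeR 1 factor had an unadjusted p under 0.05, beside 3031 of all 14483 tested genes. Both Cre libraries lay below both GFP libraries for 6 of the 13 (46.2%) and above for 1, beside 25.5% and 24.5% of all tested genes. Pparg, the nuclear receptor at the head of the adipocyte programme, stood at 24.7 ± 0.140 CPM with GFP against 22.5 ± 0.663 with Cre. Its log2 fold change was -0.13 with a standard error of 0.09, and the groups did not overlap. Cebpa stood at 0.04, Cebpb at -0.04 and Cebpd at -0.14.

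**Figure D4:**
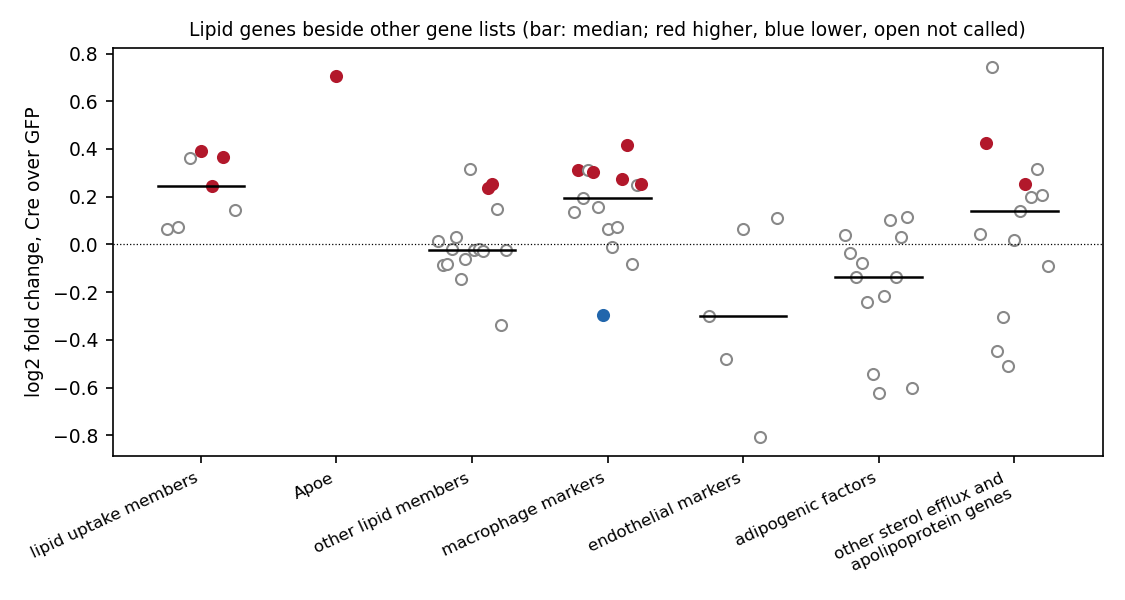
Log2 fold change, Cre over GFP, of each tested gene among the lipid uptake genes, Apoe, the other lipid genes, and 4 further lists (macrophage and endothelial markers, adipogenic factors, and sterol efflux and apolipoprotein genes), with a bar at the median. Red points were called higher, blue lower, and open points were not called. The median is 0.24 for the uptake genes, 0.19 for macrophage markers, 0.14 for the sterol efflux genes and -0.13 for the adipogenic factors. Stromal markers, with a median of -0.07, are not shown.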

How the data were processed

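A TruSeq kit was used on 1 µg of total RNA for each of the 4 libraries, per the labels' protocols. The submitters' processing notes name HISAT2 and the build GRCm38. Its version, the counting program, the annotation and the strand setting were not given in the sources used here. The deposited values are raw whole-number counts per gene, without normalization by the authors. From these, edgeR 4.0.16 (R 4.3.3) was run on all genes: filterByExpr (minimum count 10, minimum total 15), TMM, and the quasi-likelihood test on group alone, adjusted by Benjamini-Hochberg, threshold 0.05. Standard errors are the log2 fold change over the root of F. Limma 3.58.1 (voom) and DESeq2 1.42.0 were alternatives. Within groups, libraries varied beyond counting noise (median chi-square 1.78 times it for Cre and 3.85 for GFP). Pairs across groups gave 3.43 to 5.85, and the lowest, GFP replicate 1 with Cre replicate 1, was below the GFP pair. Libraries were scaled here by total counts, with Rn18s-rs5 included. With counts simulated for Cre against GFP over 14293 genes, 32% of genes changed 1.25-fold, 64% at 1.5-fold and 86% at 2-fold were recovered, and 8 of 148 calls were false. The simulation gave every gene the same fixed spread in all libraries and held no deviating library like GFP replicate 2. These shares therefore need not hold for the real libraries.

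The members and lists were chosen with earlier results of these data known, and the roles were assigned after the counts were seen. Of 187 list entries, 7 were matched by an older symbol and 1 was not found. Levels per kb use the longest coding transcript of GENCODE M21, and positions are RefSeq's on GRCm38.p6. Named were Setd2, the 33 genes, up to 6 called genes from each list with 1 CPM or more on average, 4 adipogenic factors and macrophage markers. Ptrf, Cav2, Gpihbp1, Cpt1a, Nr1h3, Abca1, Apoc1, Csf1r, Ptprc, Pecam1 and Cldn5 were chosen after their values were seen. Alternatives changed the scaling, the tool, the low-count filter, the block, the dispersion and the libraries. The test on messenger RNA genes alone, without Lars2, was added after seeing the data.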

Additional observations from a re-analysis of the deposited data

How the results depend on the processing

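The 6 rises kept their sign under every one of the 13 alternatives run for single genes. For each of the 6, both Cre libraries lay above both GFP libraries, so leaving out 1 library could hardly turn a sign. Their calls depended on which and how many libraries were kept. Leaving out 1 library in turn gave 0 to 3 lipid genes higher (0 without GFP replicate 1 and 0 without GFP replicate 2, 3 without Cre replicate 1, 2 without Cre replicate 2) and 0 to 1 lower (Plin4), with a median between 0.0563 and 0.12. Over all genes it gave 0 to 257 higher and 0 to 259 lower, against 542 and 467 in all libraries. The spread then comes from the group that keeps 2 libraries, and the single library is taken to share it. DESeq2, which left 22 of the 24 genes with an adjusted p, called 3 lipid genes higher, with 250 higher and 130 lower over all genes. Without a low-count filter 1 was higher (Apoe), with 18 and 12 over all genes, and the cause was not tested. At an adjusted p of 0.01, 2 were higher (Fabp5 and Apoe), with 257 and 220. Scaling by library size alone gave a median of 0.0795 (0.03 over all genes), with 347 and 183 over all genes, and 4 lipid genes higher. With robust dispersion 1 lipid gene was lower (Plin4, adjusted p = 0.0462) and 7 higher, Fabp4 among them (adjusted p = 0.0367), with 726 and 608 over all genes. Fabp4 also passed with at least 1 CPM in 2 libraries (0.0467) and on messenger RNA genes alone (0.0462), where 7 lipid genes were higher.

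Signs turned only for genes that were not called, and with a library left out could hardly turn for those that were. With scaling by library size alone these were Acsl4 (0.0149), Gpam (0.009), Lpin1 (0.0022), Pnpla2 (0.0103) and Lipe (0.0121). With 1 library left out, Acsl3 ranged from -0.21 to 0.0689, Acsl4 from -0.0592 to 0.0284, Gpam from -0.0801 to 0.0442, Agpat2 from -0.0405 to 0.10, Lpin1 from -0.16 to 0.13, Dgat2 from -0.20 to 0.08, Pnpla2 from -0.11 to 0.0638, Abhd5 from -0.11 to 0.13 and Lipe from -0.26 to 0.19. The labels do not say that equal replicate numbers mark a shared culture, and same-numbered libraries did not deviate together (correlation -0.02). With the replicate number as a block 5 lipid genes were higher, without Mgll (adjusted p = 0.0692), and 441 and 388 genes were called overall; 0 lipid genes were lower and the median was 0.05. Depth limits G0s2, Lipe and the 9 genes below the filter most.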
